A study of Mus musculus with 15 samples.

Results

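The genes described here encode the proteins of the cytosolic ribosome, measured in lungs of mice that aspirated or inhaled rod-like carbon nanotubes (rCNT). They were taken by gene symbol: every symbol that starts with Rpl or Rps and a number, with Rplp0, Rplp1, Rplp2 and Rpsa, but without the Rps6k kinases and without names marked as pseudogenes. Of 95 such symbols in RefSeq, 88 had a probe on the array, and 87 passed the filter on dim probes, which asks for a signal well above background in 3 or more samples of the same group. The testis paralog Rpl10l was the gene that did not pass. The 87 genes stand among 25255 genes tested. They hold 31 proteins of the small subunit, 42 of the large subunit and the 3 P-stalk proteins, 76 canonical genes in all. The other members are 7 paralogs (Rpl3l, Rpl7l1, Rpl22l1, Rpl36al, Rpl39l, Rps4l and Rps27l), 3 retrogenes (Rpl32l, Rpl37rt and Rps23rg1) and Rps19bp1, whose product binds a ribosomal protein and is none itself. RefSeq lists Rps4l as a transcribed pseudogene.

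A ribosome needs equal numbers of nearly all of these proteins, and their mRNAs are among the most abundant of any cell. Most of these mRNAs start with a C followed by a run of pyrimidines, the terminal oligopyrimidine or TOP tract, through which the mTOR kinase and the protein LARP1 regulate their translation together. In tissues, ribosomal protein mRNA is known to be high in growing cells and in lymphocytes, and several members have roles outside the ribosome, such as the control of p53 by Rpl5 and Rpl11.

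All animals were female C57BL/6 mice of 7 to 8 weeks, with no genetic change named in the labels, and the lungs were collected 24 h after exposure ended. In 4 samples, the mice had received 10 µg rCNT a day in 50 µl phosphate-buffered saline (PBS) by oropharyngeal aspiration for 4 days, and 4 samples came from mice given 50 µl PBS alone in the same way. In 3 samples, the mice had inhaled an rCNT aerosol of 6.2 to 8.2 mg/m3 for 4 h a day on 4 days, and 4 samples came from untreated mice, the controls of the inhalation. Each sample was 1 channel of an Agilent array, and levels are log2 intensities after quantile normalisation over the 15 samples. Single mice and pools are not distinguished in the labels, so the p-values rest on the spread from sample to sample, part of which may be technical. Untreated replicate 1 carries a PBS aspiration in its title but is untreated by its other labels, and it was kept as untreated.

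Several facts of the whole series touch every result. A single slide held the 8 aspiration samples and the other 2 slides held the inhaled and untreated samples, so route, slide and kind of control cannot be told apart. Lung epithelial markers such as Sftpc, the surfactant protein C gene, and Scgb1a1 of club cells were well above background in every sample. The untreated libraries stood apart in 8 measured nuclear noncoding RNAs, which were all higher in inhaled rCNT than in untreated lungs, with a median log2 fold change of 3.39. The same 8 were all higher in PBS than in untreated lungs, with a median of 2.54, both under each of 3 scalings between samples. Neat1, for instance, differed by 4.04 between inhaled rCNT and untreated lungs and by -0.64 between aspirated rCNT and PBS lungs. The part of these differences in the results below was not tested.

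Most members were bright on the array, and this matters for the scaling. The mean log2 intensity of a member lay between 6.35 and 17.37 with a median of 15.55, and 79 of the 87 had 14 or more. A probe's brightness depends on the probe as well as on the RNA, so no member's level is set against another's. In all, 85 members were well above background in every sample, the exceptions being Rpl39l and Rpl3l.

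The start of the genes is shown first, because the TOP tract begins there. RefSeq windows (GRCm38.p6) were at hand for 66 of the 87 members. Each line below gives 20 bases before the annotated start and 20 bases from it on, written in the direction of the gene, with matches to 3 pyrimidine motifs in capitals. The first motif searched was CTTTCC. The second motif searched was CTTTTC. The third was CTCTTT, which can overlap the first. All were searched on the gene's own strand. The first 5 genes carry a match, the other 4 do not, and all are described below.
Rpl28, chr7:4792945-4792984, plus strand: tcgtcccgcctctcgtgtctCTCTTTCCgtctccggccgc
Rpl5, chr5:107900508-107900547, plus strand: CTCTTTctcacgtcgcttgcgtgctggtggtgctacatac
Rps6, chr4:86857348-86857387, minus strand: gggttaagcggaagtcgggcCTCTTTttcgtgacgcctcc
Rps27, chr3:90213629-90213668, minus strand: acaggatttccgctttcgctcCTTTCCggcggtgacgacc
Rpl38, chr11:114668560-114668599, plus strand: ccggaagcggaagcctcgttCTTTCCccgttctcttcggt
Rplp0, chr5:115559447-115559486, plus strand: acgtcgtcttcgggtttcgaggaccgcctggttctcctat
Rpl36al, chr12:69184048-69184087, minus strand: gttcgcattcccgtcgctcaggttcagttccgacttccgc
Rps27l, chr9:66946066-66946105, plus strand: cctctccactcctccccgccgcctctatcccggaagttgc
Rpl22, chr4:152324416-152324455, plus strand: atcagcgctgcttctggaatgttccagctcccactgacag

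A pyrimidine tract of this kind was found near the start of 20 of 66 members (30.3%) and of 5.24% of 27025 genes with a window. In Rpl28, Rps6 and Rpl38 the match begins at the annotated start itself, a C. A C at the start with 4 pyrimidines after it was found in 14 members (21.2%) and in 3.01% of all genes. Within the whole window of 250 bases before and 50 bases after the start, CCGGAAG, the core bound by ETS factors, was found on either strand in 25 members (37.9%) and in 9.93% of all genes. AAGATGGC, the core bound by YY1, was found in 6 members (9.09%) and in 3.19% of all genes. Annotated starts can lie some bases from the start in use, and a match is a description of the letters only.

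Aspirated rCNT left most ribosomal protein mRNAs near the level of the PBS lungs and was accompanied by higher levels of a minority of them. Among the 87 members, 21 were called higher (24.1%) and 3 lower (3.45%) at an adjusted p below 0.05, with a median log2 fold change of 0.04. Without Rps19bp1 the counts were 20 and 3, and among the 85 members other than Rpl39l and Rpl3l, 2 dim genes described below, they were 20 and 2. Over all genes tested, 20.6% were higher and 26.5% lower, with a median of -0.04, so the share of members called higher was near the background while few were called lower. The largest increases were in Rps27l, Rpl36al, Rplp0, Rps2 and Rpsa, each by 0.44 to 0.49 on the log2 scale. Of these 85, 0 reached a 2-fold change in either direction under any of the 3 scalings, against 3.81% of all genes tested with quantile normalisation. Rpl39l and Rpl3l have bounds only. Cyclic loess scaling gave 19 higher and 5 lower and median centring 30 higher and 1 lower. Of all genes tested, 24.7% were higher and 22.8% lower with cyclic loess, and 18.3% higher and 18.2% lower with median centring. The direction of the median was the same under the 3 scalings (0.01 with cyclic loess, 0.17 with median centring).

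Of the structural proteins that rose, Rplp0 is the base of the P-stalk, which recruits elongation factors to the large subunit. Rplp0 read 17.12, 17.56, 17.15 and 17.42 in the lungs with aspirated rCNT, against 16.86, 16.83, 16.84 and 16.87 in the PBS lungs. The 4 rCNT samples were all above the 4 PBS samples, and the fold change was 1.38 (log2 0.46 ± 0.08 SE, adjusted p = 0.000247). The other P-stalk genes, Rplp1 and Rplp2, were not called, with log2 fold changes of -0.06 and 0.07.

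In the small subunit, Rps2 lies near the mRNA entry channel. It read 15.16, 15.31, 15.18 and 15.27 with aspirated rCNT, against 14.77, 14.74, 14.83 and 14.74 with PBS, with no overlap (log2 fold change 0.46 ± 0.06 SE, adjusted p = 5.15e-06). Rpsa, also known as the laminin receptor precursor, read 16.80, 17.10, 16.87 and 17.00 with aspirated rCNT, against 16.47, 16.57, 16.41 and 16.54 with PBS. Its groups did not overlap either (0.44 ± 0.07, adjusted p = 7.36e-05). Among the 31 small-subunit genes 4 were called higher and 1 lower, and among the 42 of the large subunit 9 were higher and 1 lower. Rpl41, the smallest protein of the ribosome, was among these 9. It read 16.96, 17.21, 17.08 and 17.18 with aspirated rCNT, against 16.79, 16.74, 16.77 and 16.73 with PBS, again without overlap (0.35 ± 0.07, adjusted p = 0.000409).

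Among the paralogs, 4 of the 5 other than Rpl39l and Rpl3l were called higher and 0 lower, with the same counts under the 3 scalings. Paralogs are related copies of a ribosomal protein gene, and the products of some of them can take its place in the ribosome, often in particular tissues. Rps27l, a paralog of Rps27 that p53 induces in human cells, read 14.36, 14.54, 14.49 and 14.39 with aspirated rCNT, against 13.99, 13.97, 13.89 and 13.97 with PBS. All 4 rCNT samples were above all PBS samples, at a fold change of 1.41 (log2 0.49 ± 0.07 SE, adjusted p = 2.88e-05). Rpl36al, an autosomal copy of the X-linked Rpl36a, read 14.13, 14.12, 14.13 and 14.11 with aspirated rCNT, against 13.55, 13.80, 13.60 and 13.69 with PBS. The 4 rCNT values were close together and above the PBS values (0.46 ± 0.09, adjusted p = 0.000324).

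Rpl7l1, a paralog of Rpl7, read 8.64, 8.55, 8.61 and 8.73 with aspirated rCNT, against 8.16, 8.10, 8.23 and 8.39 with PBS (0.41 ± 0.07, adjusted p = 0.000222). Rpl22l1, whose mRNA is repressed by its paralog Rpl22 in mice, read 14.01, 13.93, 14.01 and 14.12 with aspirated rCNT, against 13.74, 13.74, 13.62 and 13.72 with PBS (0.32 ± 0.07, adjusted p = 0.00117). Both were higher in each rCNT sample than in any PBS sample. Rpl39l, known for its expression in testis, was well above background in 4 of 4 samples with aspirated rCNT and in 0 samples of the other groups. It passed the filter on dim probes only through the group in which it is high, so its value is a description with no test. By that value it was at least 1.27-fold higher (means 6.68 with aspirated rCNT and 6.33 with PBS). This bound sets the mean of the bright group against the higher of the dim probe's own signal and the lowest signal above background.

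Rpl3l, the paralog of Rpl3 in heart and skeletal muscle, went the other way. It was well above background in 0 of 4 samples with aspirated rCNT and in 3 of 4 with PBS, the group through which alone it passed the filter. As a description with no test, it was at least 1.22-fold lower (means 6.22 with aspirated rCNT and 6.53 with PBS). The 4 measured heart muscle markers were all lower with aspirated rCNT than with PBS, with a median log2 fold change of -1.57. Their mean deviation per sample lay between -0.58 and -0.0023 with aspirated rCNT and between 0.85 and 1.06 with PBS. The part of heart tissue in the value of Rpl3l was not tested.

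The other members called lower were Rps27 and Rpl21. Rps27, of the small subunit, read 16.29, 16.17, 16.29 and 16.17 with aspirated rCNT, against 16.65, 16.45, 16.61 and 16.39 with PBS. The groups did not overlap (-0.30 ± 0.09, adjusted p = 0.012), and the 3 other Rps27 probes gave log2 fold changes of -0.33, -0.32 and -0.33. Rpl21, of the large subunit, read 14.98, 14.91, 14.97 and 14.90 with aspirated rCNT, against 15.23, 15.08, 15.25 and 15.16 with PBS, also without overlap (-0.24 ± 0.07, adjusted p = 0.00979). Median centring brought Rps27 to -0.13 and Rpl21 to -0.08, and neither was then called. Rps27 and its paralog Rps27l thus differed in opposite directions between aspirated rCNT and PBS lungs under quantile and cyclic loess scaling, and in the fold changes but not in both calls under median centring.

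At the other end, Rps16 and Rps3 had log2 fold changes of 0.00 after aspiration. Counted by samples, 26 members were higher in every rCNT sample than in any PBS sample and 3 were lower, against 19.2% and 23.3% of all genes tested. Of the 21 members called higher, 18 were called in the same direction under all 3 scalings, and 15 under every alternative that gave them a value, each left-out sample included. The counts of this paragraph include Rpl39l and, among the 3 lower, Rpl3l. Each passed the filter only through the group in which it is high, so its calls are a description with no test. Rpl39l had no value under the filter that asks for a signal over background in all 15 samples. These 15 were Rpl10a, Rpl15, Rpl22l1, Rpl29, Rpl36al, Rpl39l, Rpl41, Rpl7a, Rpl7l1, Rplp0, Rps19bp1, Rps2, Rps26, Rps27l and Rpsa.

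**Figure D1:**
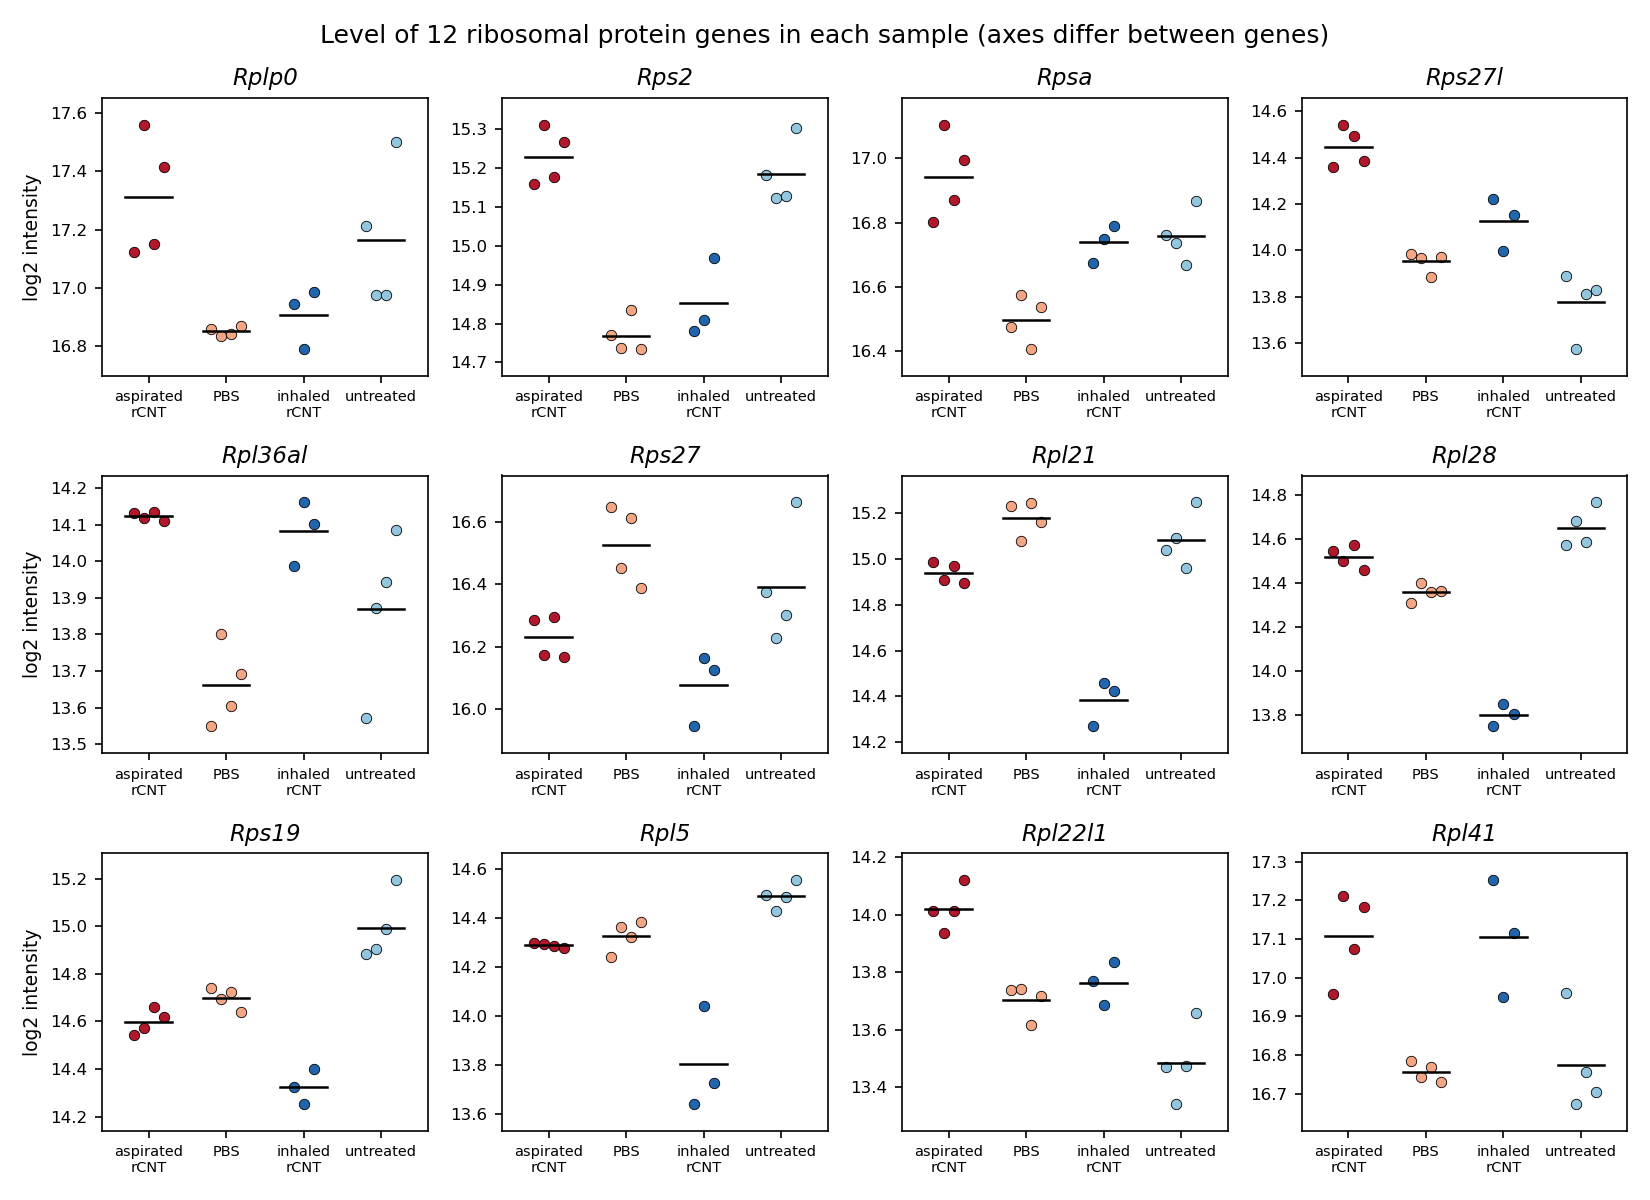
Log2 intensity (vertical axis, a separate range for each gene) of 12 ribosomal protein genes in the 4 groups; each point is 1 sample and each bar a group mean. The 4 samples with aspirated rCNT lie above the 4 PBS samples in Rplp0, Rps2, Rpsa, Rps27l, Rpl36al, Rpl28, Rpl22l1 and Rpl41 and below them in Rps27 and Rpl21, and the 3 samples with inhaled rCNT lie below the 4 untreated samples in Rpl21, Rpl28, Rps19 and Rpl5.

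Inhaled rCNT was accompanied by lower levels of many ribosomal protein mRNAs than in untreated lungs, but how many depended on the scaling. With quantile normalisation, 54 of 87 members were called lower (62.1%) and 8 higher (9.2%), against 32.5% lower and 28.4% higher among all genes tested. The counts were the same without Rps19bp1. The members' median log2 fold change was -0.23, against -0.02 for all genes. Median centring gave 80 lower and 0 higher, with a median of -0.71, against 40.1% lower and 15.2% higher among all genes. Cyclic loess gave 26 lower and 25 higher, with a median of -0.01, and these shares were near the 25.8% lower and 31.2% higher among all genes. Median centring also moved the median of all genes, to -0.15 for inhaled rCNT against untreated lungs, to 0.14 for the difference between the routes and to -0.29 for inhaled rCNT against PBS lungs.

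The values of other bright genes shifted with the scaling too. Among the 1204 other genes with a log2 level of 14 or more, the median after inhalation was -0.15 with quantile normalisation, -0.66 with median centring and 0.04 with cyclic loess. For the 79 members in that range it was -0.26, -0.73 and -0.02, so with cyclic loess the medians had opposite signs. With cyclic loess 26.2% of these other genes were called lower and 39.3% higher, and 24 of the 79 members were called lower and 22 higher. With quantile normalisation 47.7% of the other genes were called lower and 28.2% higher, and 52 of the 79 members were called lower and 5 higher. The part of this shift of bright genes in the members' values was not tested. The scalings shared a core of 26 genes that were called lower under all 3. These are the 26 members called lower with cyclic loess, a share near the 25.8% of all genes called lower with that scaling. The share of all genes called lower under all 3 scalings was not counted.

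**Figure D2:**
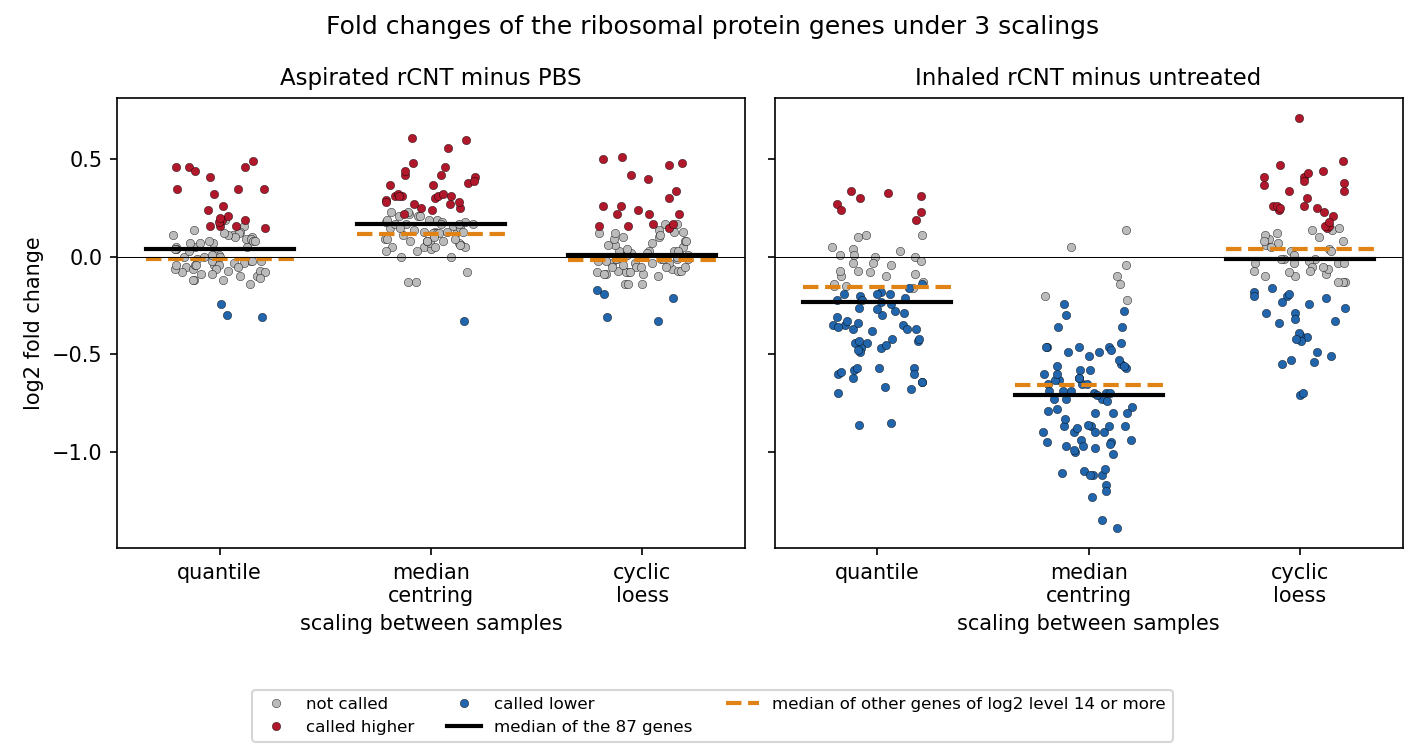
Log2 fold change (vertical axis) of each of the 87 members under quantile normalisation, median centring and cyclic loess (horizontal axis), for aspirated rCNT minus PBS (left) and inhaled rCNT minus untreated (right). The solid line is the members' median and the dashed line the median of the other genes of log2 level 14 or more; after inhalation the members' median lies at -0.23, -0.71 and -0.01, and 54, 80 and 26 members are called lower.

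The 26 genes include members with some of the largest decreases. Rpl28, which has no counterpart in baker's yeast, read 13.75, 13.85 and 13.80 with inhaled rCNT, against 14.57, 14.68, 14.59 and 14.77 in untreated lungs. All 3 inhaled samples were below all 4 untreated samples. Rpl28 fell by 0.85 ± 0.06 on the log2 scale (adjusted p = 1.62e-08), with -1.35 under median centring and -0.70 under cyclic loess. Rpl21 fell by 0.70 ± 0.08 (adjusted p = 9.75e-07), with 14.27, 14.46 and 14.43 in the inhaled samples and 15.04, 15.09, 14.96 and 15.25 in the untreated samples.

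Rps19, the gene most often mutated in Diamond-Blackfan anaemia in humans, read 14.32, 14.25 and 14.40 with inhaled rCNT, against 14.88, 14.91, 14.99 and 15.19 in untreated lungs (-0.68 ± 0.07, adjusted p = 8.63e-07). Rpl5, which with Rpl11 and a small ribosomal RNA forms the particle that binds Mdm2, read 13.64, 14.04 and 13.73 with inhaled rCNT, against 14.49, 14.43, 14.48 and 14.55 in untreated lungs (-0.67 ± 0.08, adjusted p = 1.75e-06). Neither gene's groups overlapped, and both calls held under the 3 scalings. Rpl11, the partner of Rpl5, was not called with quantile normalisation (-0.16 ± 0.07, adjusted p = 0.0506). It had -0.63 with median centring and 0.14 with cyclic loess.

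Rps6, the substrate of the S6 kinases below mTOR, belonged to the core too. It read 15.41, 15.54 and 15.42 with inhaled rCNT, against 15.90, 15.99, 15.94 and 15.90 in untreated lungs (-0.48 ± 0.06, adjusted p = 4.52e-06). The inhaled samples were again all lower, with -0.99 under median centring and -0.26 under cyclic loess. The core also held Rpl15, Rpl19, Rpl23a, Rpl26, Rpl29, Rpl3, Rpl31, Rpl4, Rpl6, Rpl7l1, Rps2, Rps25, Rps26, Rps29, Rps3, Rps3a1, Rps4l, Rps4x and Rps7. All 26 but Rps3, whose probes differ as described below, were called lower under every alternative tried, leaving aside the fits within a slide.

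The subunits behaved alike within each scaling. Of the 31 small-subunit genes 21 were called lower and 1 higher with quantile normalisation, 31 and 0 with median centring, and 11 and 9 with cyclic loess. Of the 42 large-subunit genes 27 were called lower and 3 higher with quantile normalisation, 40 and 0 with median centring, and 13 and 11 with cyclic loess. In the P-stalk, Rplp0 and Rplp2 were called lower with quantile normalisation (-0.30 and -0.31). Rplp0 turned to 0.11 with cyclic loess and had -0.70 with median centring.

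Some members stayed level or were higher after inhalation, and here the scaling decided. The 8 members called higher with quantile normalisation were also called higher with cyclic loess, but 0 of them with median centring, where 3 were called lower. The 5 with the largest values were Rps23rg1, a retrogene of Rps23 (0.34, adjusted p = 0.00522), Rps27l (0.33, adjusted p = 0.0013), Rpl41 (0.31, adjusted p = 0.00149), Rpl22 (0.30, adjusted p = 0.000989) and Rpl22l1 (0.27, adjusted p = 0.00504). Under median centring these became 0.14, -0.14, -0.10, -0.22 and -0.20.

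Their place within the family was kept under the 3 scalings. Rps27l, Rpl41, Rpl22, Rpl22l1, Rps23rg1, Rpl34, Rpl36al and Rps15 were among the 10 members with the highest values after inhalation under all 3 scalings. At the low end, Rpl21, Rpl28, Rpl5, Rps19 and Rps7 were among the 10 lowest under all 3. By samples, Rps27l read 14.22, 13.999 and 14.15 with inhaled rCNT, against 13.89, 13.58, 13.81 and 13.83 in untreated lungs, with no overlap. Rpl22, which binds other RNAs besides ribosomal RNA, read 14.93, 14.99 and 15.03 with inhaled rCNT, against 14.58, 14.71, 14.64 and 14.76 in untreated lungs, also with no overlap.

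Counted by samples, 53 members were lower in every inhaled sample than in any untreated sample and 7 were higher, against 29.1% and 25.7% of all genes tested. With quantile normalisation 0 of the 85 members other than Rpl39l and Rpl3l changed 2-fold, against 5.94% of all genes tested. With median centring 13 did, and the share of all genes under that scaling was not counted. With the slide as a block 58 members were called lower and 7 higher, against 32.2% and 28% of all genes tested. Slide 2 held 1 inhaled sample, and slide 3 held 2 inhaled samples and 1 untreated sample. Fits within either slide thus have a group of 1 sample, and their calls are not counted here. Within slide 3 the members' median log2 fold change was -0.31, with untreated replicate 4 as the only untreated sample. That sample had the highest mean deviation of the members of the 15 samples (0.18, against 0.06 to 0.10 in the other untreated samples). Without it, the fit to all other samples gave a median of -0.21. In the fits within a slide the aspiration samples stayed in, the spread was pooled over all groups, and the group with 1 sample was assumed to vary like the others. Leaving out 1 sample at a time gave 47 to 55 members called lower.

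The effects of the routes on the family were then set against each other, as the aspiration effect minus the inhalation effect. The difference was above 0 and called in 55 members and below 0 and called in 5, against 28.4% and 28.5% of all genes tested, with a median of 0.34. The 5 include Rpl3l, which passed the filter only through the PBS samples, so its call is a description with no test. Cyclic loess gave 29 and 17 with a median of 0.02, against 26.7% and 28.8% of all genes. Median centring gave 85 and 0 with a median of 0.94, against 35.1% and 15.5%. Under all 3 scalings, 28 members were called above 0 and 0 below. Dose, slide and kind of control differ between the routes as well, and their parts cannot be told apart.

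In single members the routes went in opposite directions. Rpl7l1 had the largest difference, at 1.04 ± 0.11 SE (adjusted p = 9.29e-07), with 0.41 after aspiration and -0.62 after inhalation. It read 7.86, 7.92 and 8.04 with inhaled rCNT, against 8.67, 8.48, 8.49 and 8.60 in untreated lungs, so each inhaled sample was lower. Rpl28 differed by 1.01 ± 0.08 (adjusted p = 1.03e-07), with 0.16 after aspiration and -0.85 after inhalation. Its call after aspiration was lost with the replicate block and in 5 of the fits without 1 sample. Rps2 differed by 0.81 ± 0.08 (adjusted p = 7.31e-07), with 0.46 and -0.35.

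These 3 differences were called under the 3 scalings, at 1.1, 1.63 and 1.48 with median centring and 0.99, 0.87 and 0.67 with cyclic loess. Rplp0 differed by 0.76 (adjusted p = 6.83e-05) with quantile normalisation and 1.16 with median centring, but by 0.15, not called, with cyclic loess. By contrast, with quantile normalisation the differences of Rps27l, Rpl22l1 and Rpl41 were 0.16, 0.05 and 0.04 and were not called. This depended on the scaling. All 3 were called above 0 with median centring, and Rpl41 had -0.49 with cyclic loess (adjusted p = 9.73e-05). Of the 21 members called higher after aspiration, 12 were called lower and 4 higher after inhalation with quantile normalisation, and these 12 are 12 of the 54 called lower after inhalation. In all, 18 members were called in both comparisons, 6 only after aspiration, 44 only after inhalation and 19 in neither. Among all genes tested, 47.1% were called in either direction after aspiration and 60.8% after inhalation.

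**Figure D3:**
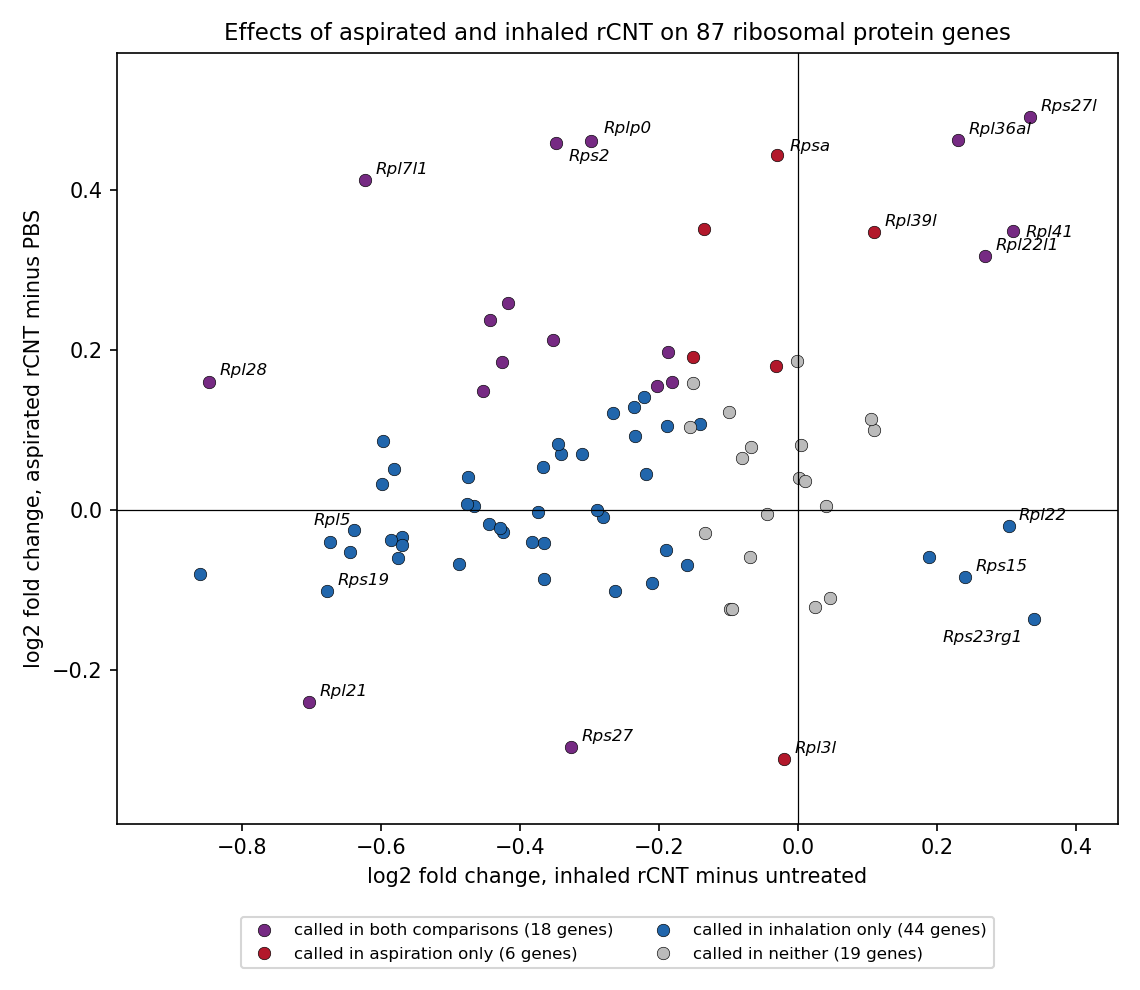
Log2 fold change of each of the 87 members after inhalation (horizontal axis, inhaled rCNT minus untreated) and after aspiration (vertical axis, aspirated rCNT minus PBS), with quantile normalisation; colours give the comparison in which a gene was called. Rpl28, Rpl7l1, Rps2 and Rplp0 lie above 0 after aspiration and below 0 after inhalation, and Rps27l, Rpl36al, Rpl41 and Rpl22l1 lie above 0 in both, but below 0 after inhalation with median centring.

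The control groups also differed in the family. Compared with untreated lungs, PBS lungs had 41 members called lower and 12 higher, against 33.1% and 26.3% of all genes tested, with a median of -0.15. The calls were 43 lower and 3 higher with median centring, against 20.6% lower and 29.9% higher among all genes. With cyclic loess they were 23 lower and 18 higher, against 28.5% and 29.4%. The lowest was Rps29, a zinc-binding protein of the small subunit, with 16.36, 16.25, 16.31 and 16.23 in PBS lungs, against 16.76, 16.79, 16.74 and 16.89 in untreated lungs. It was lower in every PBS sample (-0.50 ± 0.06, adjusted p = 2.38e-06), followed by Rplp2 (-0.49), Rps4x (-0.48), Rpl23a (-0.48) and Rpl37a (-0.48). These 5 calls held under the 3 scalings. The highest were Rpl22 (0.53), Rps27a (0.40), whose protein is made as a fusion with ubiquitin, and Rpl34 (0.27). Rpl22, Rps27a and Rpl22l1 were called higher under all 3 scalings. Route, slide and saline cannot be told apart in this comparison, and without PBS replicate 1 the 12 members called higher became 7. Rpl3l is among the 12 and passed the filter only through the PBS samples, so its call is a description with no test.

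Against the PBS lungs, in place of the untreated ones, inhaled rCNT lungs had 41 members called lower and 9 higher, against 27.7% and 27.5% of all genes tested. The median was -0.14 with quantile normalisation, -0.50 with median centring and 0.01 with cyclic loess. In calls, median centring gave 76 lower and 0 higher, against 51.9% lower and 13.9% higher among all genes, and cyclic loess 16 and 16, against 25.2% and 28.4%. Rpl21 was the lowest at -0.80 ± 0.08 (adjusted p = 5.03e-07), then Rpl28 (-0.55) and Rpl5 (-0.51), and Rps27 had -0.46. Rpl21, Rpl28 and Rpl5 were called lower under all 3 scalings. Both comparisons of inhaled lungs share the inhaled samples, and this one differs in route and slide as well, which cannot be told apart. Without PBS replicate 1 the 41 members called lower became 28, and without PBS replicate 3 the 9 called higher became 6. The 41 include Rpl3l, again a description with no test, since it passed the filter only through the PBS samples.

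Over the 15 samples most members moved together. The mean deviation of the 87 members from their own averages was 0.05 ± 0.03 with aspirated rCNT and -0.02 ± 0.02 with PBS (SD, n = 4 each), on the log2 scale. It was -0.14 ± 0.03 with inhaled rCNT (SD, n = 3) and 0.10 ± 0.06 in untreated lungs (SD, n = 4), where untreated replicate 4 was the highest at 0.18. The correlation of a member with the mean of the others had a median of 0.65 over the 15 samples, was above 0.8 in 26 members and below 0 in 13. The highest value was that of Rps7 (0.95), and the lowest was that of Rps15 (-0.63). The samples share the 4 groups and the normalisation, so this is a description.

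Other probes of the same genes were used as a check. In 51 genes, 85 further probes passed the filter. After aspiration, 21 pairs of probes both had an unadjusted p below 0.05 and all had the same direction. Rplp0, for example, had 0.37 and 0.36 with its other probes, and Rps2 had 0.48. Pairs in which a probe did not reach that p are outside this count, and some of them differed. Rpl13a, not called after aspiration at 0.0055, had 0.49 and 0.39 with its other probes. After inhalation, 51 of 54 such pairs had the same direction and 3 did not. The exceptions were Rpl22 (-0.43 with its other probe), Rps15 (-0.35) and Rps3 (0.20). Beyond these pairs, Rpsa, not called after inhalation, had -0.32, -0.55 and 0.00 with its other probes, and Rpl21 had -0.60 and 0.04. The second Rpl22 probe was also lower after aspiration (-0.65, adjusted p = 7.71e-08), so the values of Rpl22 hold for 1 probe only. Ribosomal proteins have many near-identical pseudogenes, and a probe can also bind transcripts of those.

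Members with and without a match to the 3 motifs were found in each direction of change. A gene without a match can still have a pyrimidine run over its annotated start, such as Rpl7a (21 bases) and Rplp2 (10 bases). At least 1 of the 3 motifs shown above was found near the start of 9 of 39 members called lower after inhalation (23.1%), 1 of 8 called higher and 10 of 19 not called (52.6%). Rpl28, Rpl5 and Rps6, which carry a match, were called lower, and so was Rplp0, which has no match. The match of Rpl5 lies before its annotated start, a G. Rpl38, whose match begins at its start, had 0.00. After aspiration a match was found in 5 of 19 members called higher (26.3%) and 14 of 45 not called (31.1%). These shares have no test, and they rest on annotated starts.

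Genes that build and use ribosomes were described beside the ribosomal proteins. After aspiration the biogenesis factors were mostly higher. Of all genes tested, 20.6% were higher and 26.5% lower, or 18.3% and 18.2% with median centring and 24.7% and 22.8% with cyclic loess. Of 36 measured ribosome biogenesis factors, 25 were called higher and 1 lower, with a median log2 fold change of 0.31, and the direction was the same with median centring (22 and 1) and cyclic loess (30 and 1). Nop58 and Fbl, core proteins of the box C/D snoRNPs that methylate ribosomal RNA, were higher by 0.81 and 0.58. Ddx21, a nucleolar helicase, was higher by 0.80 and Gnl3, or nucleostemin, by 0.47, while Sbds, which matures the large subunit, was called lower (-0.54). Of the 16 measured genes of the RNA polymerase I machinery, 6 were higher and 1 lower, or 4 and 0 with median centring and 8 and 1 with cyclic loess.

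Mitochondrial ribosomal proteins, encoded by nuclear genes of another family, were called higher in 43 of 78 and lower in 3 after aspiration, with a median of 0.19 (34 and 0 with median centring, 47 and 2 with cyclic loess). Mrps25 was higher by 0.59, Mrpl54 by 0.48 and Mrpl45 by 0.45. Translation initiation factors had 17 higher and 4 lower of 47 (36.2% and 8.51%), against 20.6% and 26.5% of all genes tested. These counts were 14 and 3 with median centring and 19 and 3 with cyclic loess. Elongation factors and other known TOP mRNAs had 6 higher and 1 lower of 18, or 5 and 0 with median centring and 6 and 2 with cyclic loess. Eif4b, Eif3e, Eif3f, Eif3h, Eif3k, Eif3l and Eif3m are in this list and among the initiation factors. Eef2, the translocase of elongation, was the gene called lower (-0.23), and it was not called lower with median centring. Of 3 measured ribosomal proteins whose names the symbol rule does not reach, 1 was called higher, Rack1 (0.21). With median centring 2 of the 3 were called higher, and with cyclic loess 0 were called. Myc, which drives transcription of ribosomal genes, was higher by 0.76 (adjusted p = 3.89e-05).

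After inhalation the same lists had more lower than higher calls, and the split again depended on the scaling. Of all genes tested, 32.5% were lower and 28.4% higher, or 40.1% and 15.2% with median centring and 25.8% and 31.2% with cyclic loess. Mitochondrial ribosomal proteins had 41 lower and 7 higher with quantile normalisation, 66 and 0 with median centring and 34 and 10 with cyclic loess. Biogenesis factors had 14 lower and 5 higher, or 23 and 0 with median centring and 10 and 7 with cyclic loess. Initiation factors had 27 lower and 7 higher, or 35 and 1 and 20 and 11. Eif3e and Eif3f, subunits of the factor that binds the small subunit, had log2 fold changes of -1.31 and -1.26. Elongation and TOP mRNAs, a list that shares genes with the initiation factors, Eif3e and Eif3f among them, had 11 lower and 1 higher, or 17 and 0 and 8 and 2. RNA polymerase I genes had 6 lower and 4 higher (37.5% and 25%), near the shares of all genes. They had 9 and 1 with median centring and, in the other direction, 3 lower and 5 higher with cyclic loess. The 3 measured ribosomal proteins outside the symbol rule were all called lower with quantile normalisation and median centring. With cyclic loess 0 of them were called.

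Of 23 regulators of growth and translation, 12 were called lower and 10 higher after inhalation, against 32.5% and 28.4% of all genes tested. These counts were 12 and 4 with median centring and 9 and 10 with cyclic loess. After aspiration 6 were lower and 2 higher, against 26.5% and 20.6% of all genes. With median centring 4 were lower and 2 higher, and with cyclic loess 5 and 4. Mtor had a log2 fold change of -0.76 after inhalation. Its inhibitor Ddit4 was higher by 1.25, Pdcd4, which blocks the initiation helicase, by 0.85, and Larp1, which holds TOP mRNAs back, by 0.74. Only some genes of the list are named, and its values after inhalation ranged from -1.38 to 1.25 with quantile normalisation. After aspiration Pdcd4 was lower (-0.38, adjusted p = 0.0029), and Ddit4 was not called (0.17). Myc had -0.52 after inhalation. These are mRNA levels, and neither the activity of mTOR nor translation was measured.

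**Figure D4:**
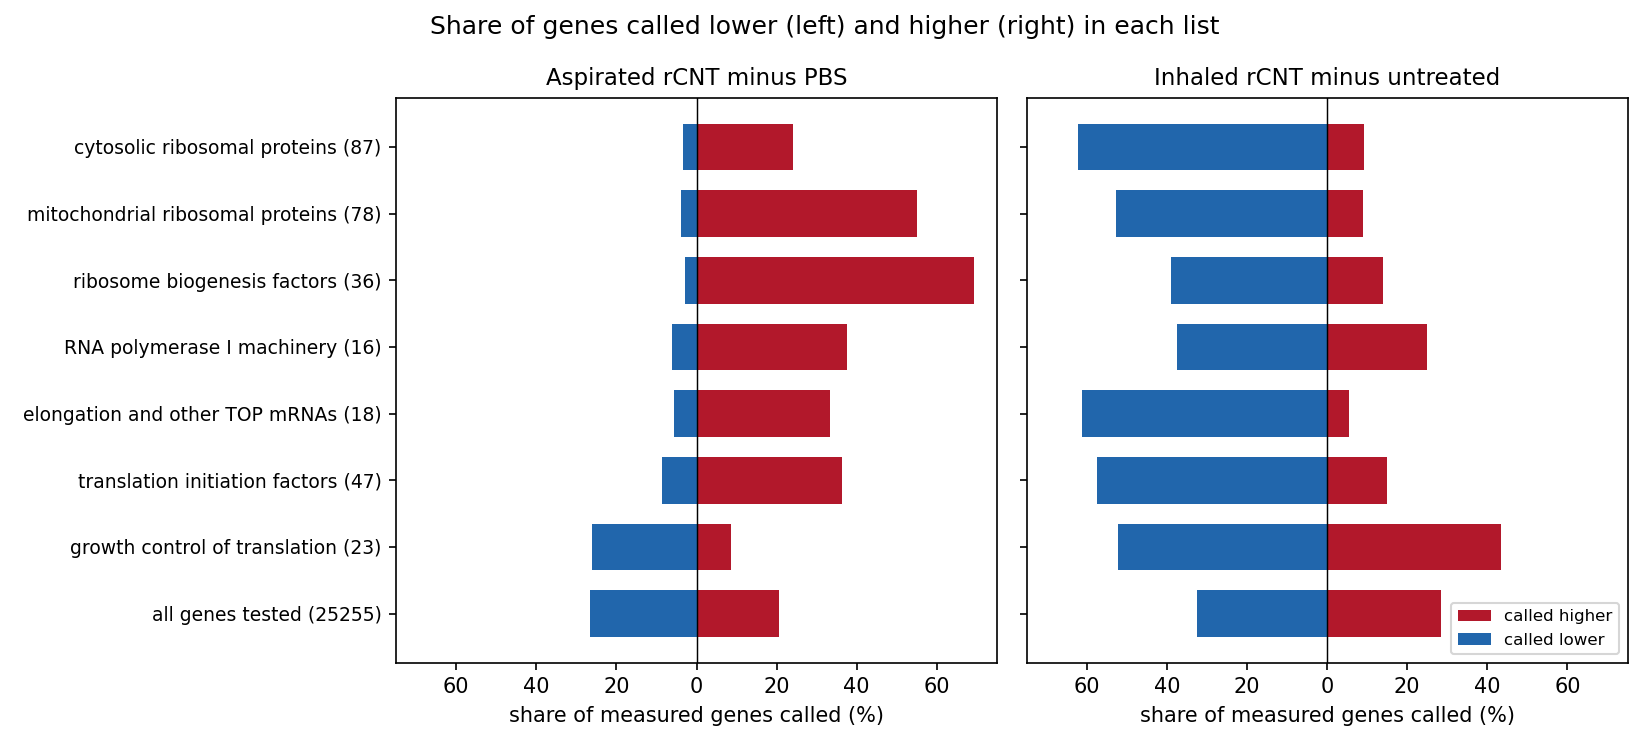
Share of measured genes (horizontal axis, percent) called lower (left of 0) and higher (right of 0) in the ribosomal protein genes, in 6 related lists and among all 25255 genes tested, with quantile normalisation, for aspirated rCNT minus PBS (left panel) and inhaled rCNT minus untreated (right panel); numbers of measured genes stand in parentheses. After aspiration 24.1% of the ribosomal protein genes and 25 of 36 biogenesis factors are called higher; after inhalation 62.1% of the ribosomal protein genes are called lower, against 26 of 87 with cyclic loess. The lists of initiation factors and of elongation and other TOP mRNAs share some genes.

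Whole lung was measured, and fewer cells of a type cannot be told apart from less RNA per cell. Marker genes of cell types moved in the same comparisons as the members. All 6 B cell markers were lower after inhalation, with a median log2 fold change of -0.89, and 0 of 6 were called after aspiration. Of 5 T cell markers, 4 were lower after inhalation, with a median of -1.30, and 2 were higher after aspiration. The 5 cell cycle markers were higher after both, with medians of 2.50 after aspiration and 1.46 after inhalation. The mean deviation of the B cell markers lay between -1.07 and -0.79 with inhaled rCNT and between -0.32 and 1.05 in untreated lungs. That of the T cell markers lay between -0.97 and -0.59 with inhaled rCNT and between -0.15 and 0.75 in untreated lungs. The 4 endothelial and the 4 red cell markers were lower after both. Of the 4 macrophage markers 2 were higher and 2 lower after both. Of the 3 measured neutrophil markers 1 was lower after aspiration, and 2 were lower and 1 higher after inhalation. With median centring 1 macrophage marker and 0 neutrophil markers were called higher after inhalation. Of the 5 epithelial markers 3 were lower after aspiration, and 4 with either other scaling. After inhalation 1 of them was lower and 0 higher with quantile normalisation, 4 and 0 with median centring and, in the other direction, 0 and 2 with cyclic loess. The part of these cells in the values of the ribosomal protein genes was not tested.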

How the data were processed

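RNA of 15 mouse lung samples on 14 Agilent arrays was measured in 2 colours, and each sample's own channel was used. Per the file headers, the intensity of each spot was extracted by the authors with Agilent Feature Extraction 11.0.1.1, on a design that refers to mm9. The submitters' processing notes also name limma. The deposited series table, of unstated scale and centring, was taken as log2 and used as an alternative only: its columns had medians of 6.58 to 6.59 and correlated at 0.9943 to 0.9999 with the sample's own channel, which settles neither the base of the logarithm nor the background correction.

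The median spot and background intensities were corrected here with normexp and an offset of 50, log2-transformed and then quantile-normalised across the 15 samples. Control spots and flagged spots (106 to 154 per sample) were left out, and 0 spots were saturated. Between 52.2% and 61.9% of spots were well above background, with a median spot of 51 to 134.5 units, and replicates correlated at 0.9939 to 0.998. The number of arrays limits the precision. A probe stayed if its signal was well above background in 3 or more samples of any group (34276 of 55681), and the brightest stood for a gene. Of 29123 probes with a RefSeq accession, 27650 had a symbol in a GRCm38.p6 table used for names only, and other probes counted as genes under their own names.

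Groups came from the labels. A linear model of limma 3.58.1 (R 4.3.3) with group and dye was fitted to all 15 samples, with eBayes and Benjamini-Hochberg adjustment over 25255 genes at 0.05, tested on simulated data. It gave 5 comparisons: rCNT against PBS by aspiration, inhaled rCNT against untreated, the difference of these effects, PBS against untreated, and inhaled rCNT against PBS. Alternatives were other scalings, signals, filters and probe rules, array weights, no dye term, slide and replicate blocks, and leaving out each sample. Named were the 5 members with the largest called change each way per comparison, the 3 that changed least after aspiration and after inhalation, and fixed examples. Some of these genes are not reported here by name, though the counts include them. The members and all lists were chosen with earlier results of these data known. Samples given the higher aspirated dose that the design names were not analysed here. Promoter windows are from RefSeq, searched with Python 3.11.15.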

Additional observations from a re-analysis of the deposited data

Results flagged for a closer look

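In 7 of 138 groups of 4 samples examined among the named members, 1 sample stood far from the other 3, where chance alone flags about 1 in 20 groups. Untreated replicate 4 was high in Rpl13a (15.65, the others 15.50 to 15.51), in Rpl23a (15.56, the others 15.45) and in Rpl39 (15.50, the others 15.26 to 15.28). Untreated replicate 1 was low in Rpl7 (16.21, the others 16.36 to 16.38) and high in Rps19bp1 (10.74, the others 10.53 to 10.55). PBS replicate 2 was low in Rps12 (16.29, the others 16.71 to 16.72), and untreated replicate 3 was low in Rps4l (11.45, the others 11.57 to 11.59).

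In 4 named members the effects of the routes were called in opposite directions and their difference was called too. The aspiration effect minus the inhalation effect was 1.04 in Rpl7l1, 1.01 in Rpl28, 0.81 in Rps2 and 0.76 in Rplp0, the last not called with cyclic loess. The aspiration call of Rpl28 (0.16) was lost with the replicate block, without PBS replicate 1 or 4, and without rCNT aspiration replicate 1, 2 or 3.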

How the results depend on the processing

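The scaling between samples changed more results than any other alternative tried. Of 426 settings of the family's medians and counts, 33 were marked as moved, 1 as reversed and 392 as neither. Some of these 392 still differed in size. Median centring gave 80 members lower after inhalation, against 54, and 30 higher after aspiration, against 21. Without PBS replicate 1, 28 members were lower for inhaled rCNT minus PBS, against 41. Median centring moved the members' median to 0.17 after aspiration, -0.71 after inhalation, 0.94 for the difference of the routes, -0.21 for PBS minus untreated and -0.50 for inhaled rCNT minus PBS. It gave 1 member called lower after aspiration, 0 called higher after inhalation, 85 above and 0 below 0 for the difference, 3 higher for PBS minus untreated, and 0 higher and 76 lower for inhaled rCNT minus PBS. Cyclic loess moved the medians to -0.01 after inhalation, 0.02 for the difference and -0.05 for PBS minus untreated, and turned that of inhaled rCNT minus PBS to 0.01. Its counts were 5 lower after aspiration, 25 higher and 26 lower after inhalation, 29 above and 17 below 0 for the difference, 23 lower for PBS minus untreated, and 16 higher and 16 lower for inhaled rCNT minus PBS. Array weights gave 5 members lower after aspiration. The mean over all probes of a gene gave 6, and a median of -0.20 for PBS minus untreated. Counting the 76 canonical genes alone, an alternative added after the data were seen, left 4 higher after inhalation and 3 below 0 for the difference. After inhalation the median was -0.29 with the slide as a block and -0.31 within slide 3. That slide held 1 untreated sample, replicate 4, the highest of the 15 samples in the members' mean deviation.

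Leaving out 1 sample at a time gave 16 to 24 members higher and 3 to 4 lower after aspiration, 7 to 8 higher and 47 to 55 lower after inhalation, and 50 to 56 above and 4 to 5 below 0 for the difference. PBS minus untreated had 7 to 12 higher (7 without PBS replicate 1) and 36 to 42 lower, and inhaled rCNT minus PBS had 6 to 9 higher and 28 to 41 lower. The medians ranged over 0.03 to 0.06, -0.26 to -0.21, 0.31 to 0.36, -0.16 to -0.11 and -0.16 to -0.12 in the order above.

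Among the named genes, 56 values reversed. After inhalation, median centring gave Rpl13a -0.46, Rpl22 -0.22, Rpl22l1 -0.20, Rpl34 -0.30, Rpl36a -0.49, Rpl36al -0.24, Rpl38 -0.51, Rpl41 -0.10, Rps15 -0.28, Rps21 -0.48, Rps24 -0.36, Rps27a -0.36 and Rps27l -0.14. For the difference it gave Rpl13a 0.64, Rpl22 0.38, Rpl34 0.41, Rps15 0.34, Rps21 0.51 and Rps24 0.53. For inhaled rCNT minus PBS it gave Rpl22l1 -0.44, Rpl36al -0.05, Rpl38 -0.11, Rplp0 -0.22, Rplp2 -0.15, Rps15 -0.18, Rps19bp1 -0.31, Rps2 -0.38, Rps21 -0.20, Rps27l -0.32 and Rpsa -0.04. After inhalation, cyclic loess gave Rplp0 0.11, Rplp1 0.16, Rps12 0.34, Rps14 0.25 and Rpsa 0.34. For the difference it gave Rpl10 -0.02, Rpl11 -0.09, Rpl37a -0.09, Rpl38 -0.25, Rpl41 -0.49, Rps14 -0.39, Rps16 -0.04, Rps27a -0.32 and Rpsa -0.04, and it gave Rpl41 0.14 for PBS minus untreated and Rpl37a 0.19 for inhaled rCNT minus PBS. The mean over all probes gave Rps24 -0.22 after aspiration, and Rpl13a -0.15, Rpl22 -0.06 and Rps15 -0.05 after inhalation. It gave Rpl13a 0.44 and Rps15 0.03 for the difference, Rpl13a -0.24 for PBS minus untreated, and Rps15 -0.02, Rps2 -0.19 and Rps3 0.16 for inhaled rCNT minus PBS. The cause was not tested.

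The replicate numbers did not pair the samples: same-numbered samples deviated with correlations of -0.43 to -0.07 in the aspiration groups and of -0.06 to 0.08 in the inhalation groups. With the replicate block, 18 members were higher and 3 lower after aspiration, 8 and 51 after inhalation, 54 above and 4 below 0 for the difference, 9 and 41 for PBS minus untreated, and 9 and 35 for inhaled rCNT minus PBS. The shared array as a random block was not run, since 1 array alone held samples of 2 groups and its correlation could not be estimated. Each of its samples is among those left out in turn. Normexp on mean signals was not run either, for the files hold the median signal and no mean signal column. The fit to the compared groups alone has no value for the difference, which needs all 4 groups. Signal over background limits Rpl39l and Rpl3l to bounds, and neither has a value under the filter on all samples. Where the counts of members called do not leave these genes out, any call of theirs is a description with no test.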
